A study of Homo sapiens with 6 samples.

Results

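The genes described here form the switch that CHK1 holds back: the kinases CDK1 and CDK2, their cyclins CCNB1, CCNB2, and CCNE1, the activating phosphatases CDC25A, CDC25B, and CDC25C, and the inhibitory kinases WEE1 and PKMYT1. They were chosen by gene symbol, and all 10 were found among the 12308 different rows of the deposited table and passed the filter on low values. RNA-seq covered 3 cultures of OVCAR5, a line of high-grade serous ovarian cancer cells without BRCA mutation, and 3 of its resistant derivative OVCAR5R. OVCAR5R was derived from OVCAR5 by growth in rising concentrations of the CHK1 inhibitor (CHK1i) prexasertib (Prex), reaching 3 µM within 3 to 4 months. It was kept at 2 µM and taken off the drug for no less than 4 days ahead of use, so neither cell line was in drug when RNA was taken. Both cell lines grew in the same medium with serum and insulin. OVCAR5R is a single resistant derivative, and whether it is a clone is not given in the sources used here. The comparison asks whether transcripts of the switch differed between resistant and parental cells at baseline.

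CDK1 bound to cyclin B starts mitosis, and CDK2 bound to cyclin E starts S phase. WEE1 in the nucleus and PKMYT1 (Myt1) at internal membranes keep the CDKs inactive by phosphorylating the ATP-binding loop of the kinase, and CDC25 phosphatases remove those phosphates. Active CHK1 marks CDC25 proteins for destruction or for retention by 14-3-3 proteins and thereby keeps CDK1 off until DNA is replicated and repaired, which is why a CHK1i can push cells into mitosis too early. Transcripts of CCNB1, CCNB2, CDK1, and CDC25C are known to peak in G2/M phase, while those of CCNE1 and CDC25A are E2F targets that are made ahead of S phase.

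The deposited values are estimated reads scaled by 1 factor per library, on a linear scale and not divided by gene length. The libraries held 3.58e+07 to 4.13e+07 estimated reads in OVCAR5 and 5.03e+07 to 5.51e+07 in OVCAR5R, and the switch genes were backed by between 192 estimated reads (CCNE1) and 15737 (CCNB1) in a library. OVCAR5 replicate 2 stood apart from the other libraries. Pearson's r across the tested genes was 0.898 and 0.883 with the other OVCAR5 libraries, which had 0.955 with each other. The 7 listed markers of epithelial and ovarian carcinoma cells summed to 16856 in OVCAR5 replicate 2, against 2333 and 2265 in OVCAR5 replicates 1 and 3 and 3542 to 4721 in OVCAR5R. EPCAM, an epithelial adhesion molecule, was at 597 in OVCAR5 replicate 2, at 15.9 and 11.9 in the other OVCAR5 libraries, and at 16.3 to 31.7 in OVCAR5R, while the keratin KRT19 was at 1341, at 9.99 and 10.7, and at 3.09 to 6.04. Another keratin, KRT7, was at 939 in OVCAR5 replicate 2 and at 85.8 and 92.7 in the other OVCAR5 libraries. In OVCAR5R it was at 431 to 583, between these, so the markers did not all group the libraries alike. Keratin KRT8, common to simple epithelia, was high in all 6 libraries, from 1031 to 7772. PAX8, a factor of Müllerian epithelium, was low everywhere, with 8.38 to 11.4 in OVCAR5 and 4.38 to 5.66 in OVCAR5R. WT1 was at 0.727 or less. Of 10 markers of other cell types, CD14 and COL1A1 were listed, and these summed to between 4.84 and 35.4 in a library, highest in OVCAR5 replicate 2. The sources used here do not give which of these marker profiles belongs to OVCAR5, and no check of identity beyond these markers was made, so what the OVCAR5 mean stands for is uncertain in each comparison below. The log2 fold change of each switch gene is therefore also given without OVCAR5 replicate 2. Values by library are listed in the order of replicates 1, 2, and 3 throughout.

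Differences between the cell lines were tested with limma over 11766 genes on log2(value + 1), and Benjamini-Hochberg adjustment ran over all of them. On this scale, changes of low genes are understated. None of the 10 switch genes passed an adjusted p of 0.05 with limma, where 0.119% of all genes tested did, 0.017% higher and 0.102% lower in OVCAR5R. At an unadjusted p of 0.05 with limma 2 of the 10 passed, CDK2 and CCNE1, both higher in OVCAR5R, where 10.4% of all genes did in either direction, 4.14% higher and 6.25% lower. Every OVCAR5R library lay above every OVCAR5 library for the same 2 genes, against 8.4% of all genes tested, and no switch gene lay below without overlap, against 8.18%, or 16.6% in either direction. By the mean log2 value, 6 of the 10 were higher in OVCAR5R, against 49.2% of all genes. With limma's library weights, limma's voom, and the other settings tried, 0 of the 10 had an adjusted p under 0.05, and the lowest adjusted p that any of them reached was 0.187. The nature of the cultures behind the replicates is not described further in the labels. These p-values measure the spread between the 3 libraries of each line, which in OVCAR5 includes the library that stood apart. Whether this is only spread between cultures of 1 line is not known.

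**Figure D1:**
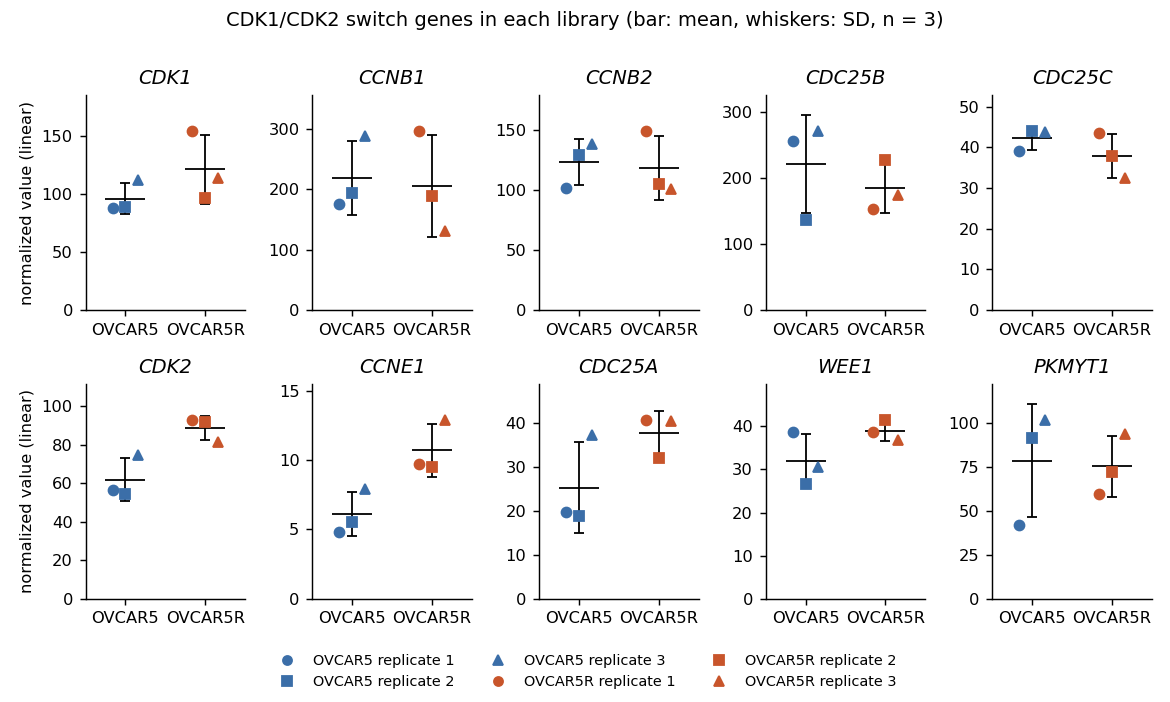
Normalized value on a linear axis from 0 for each of the 10 genes in each library (circle, square, and triangle for replicates 1, 2, and 3; blue for OVCAR5, orange for OVCAR5R), with mean and SD of 3 libraries. Only CDK2 and CCNE1 have every OVCAR5R library above every OVCAR5 library, and CCNB1 in OVCAR5R runs from 131 to 297.

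CDK2, its cyclin CCNE1, and CDC25A had the highest log2 fold changes of the 10 genes, and none of the 3 passed the adjusted p of 0.05. CDK2 had normalized values of 56.7, 54.1, and 74.8 in OVCAR5, against 93.1, 91.6, and 81.2 in OVCAR5R. The groups did not overlap, and OVCAR5 replicate 3 came nearest to OVCAR5R. Means were 61.9 ± 11.3 and 88.6 ± 6.45 (SD, n = 3 each). On the log2 scale the difference was 0.52 (standard error 0.20, 95% interval 0.05 to 0.99, limma adjusted p = 0.436). An exact two-sided permutation test over the libraries gave p = 0.1, the smallest that 3 against 3 libraries allow. Without OVCAR5 replicate 2 the log2 fold change was 0.44, and over the 6 ways of leaving out a library it stayed between 0.44 and 0.67.

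CCNE1, which encodes cyclin E1, the partner of CDK2 at the entry into S phase, was the lowest of the 10 transcripts and had the highest log2 fold change. Its values were 4.82, 5.56, and 7.88 in OVCAR5, against 9.69, 9.47, and 12.9 in OVCAR5R. The groups did not overlap. Its log2 fold change was 0.73 (standard error 0.28, 95% interval 0.09 to 1.37, limma adjusted p = 0.419), and the exact two-sided permutation test again gave its smallest p of 0.1. Without OVCAR5 replicate 2 it was 0.69, and CCNE1 ranked 469th of the 11766 genes by log2 fold change.

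CDC25A, the phosphatase that activates CDK2 in late G1 and S phase and that CHK1 marks for destruction, was close behind. It had values of 19.7, 18.9, and 37.2 in OVCAR5, against 40.8, 32.1, and 40.5 in OVCAR5R. OVCAR5 replicate 3 lay among the OVCAR5R libraries, and the other OVCAR5 libraries lay well below them. This gave a log2 fold change of 0.62 (standard error 0.29, 95% interval -0.05 to 1.30, limma adjusted p = 0.503). It rested on which OVCAR5 libraries were used, with 0.46 without OVCAR5 replicate 2 and 0.93 without OVCAR5 replicate 3 (adjusted p = 0.634 and 0.187, limma).

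On the CDK1 side, the kinase was higher by its mean and its cyclins were not. CDK1, the kinase of mitotic entry, had values of 88.0, 88.8, and 112 in OVCAR5, against 155, 96.7, and 114 in OVCAR5R. OVCAR5 replicate 3 lay within the range of OVCAR5R, and OVCAR5R replicate 1 was the highest. With limma the log2 fold change was 0.32 (standard error 0.23, 95% interval -0.22 to 0.86, limma adjusted p = 0.665). It was 0.26 without OVCAR5 replicate 2 and 0.13 without OVCAR5R replicate 1, the library that carried most of the difference.

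CCNB1, which encodes cyclin B1, the activating partner of CDK1, had values of 175, 193, and 289 in OVCAR5. In OVCAR5R it spread over a wider range, with 297, 189, and 131 in replicates 1, 2, and 3. OVCAR5R thus held both the highest and the lowest of the 6 libraries. Means were 219 ± 61.1 and 206 ± 83.9 (SD, n = 3 each), and the difference on the log2 scale was -0.14 (standard error 0.33, limma adjusted p = 0.920). The 95% interval ran from -0.90 to 0.63, so the libraries bound a change in either direction only loosely. Without OVCAR5R replicate 3 the log2 fold change was 0.15, without OVCAR5R replicate 1 it was -0.44, and without OVCAR5 replicate 2 it was -0.21, so its sign depended on single libraries.

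CCNB2, which encodes the Golgi-associated cyclin B2, followed a similar order of libraries. Its values were 102, 129, and 139 in OVCAR5, against 149, 105, and 101 in OVCAR5R. The groups overlapped over nearly their whole range. The fitted log2 fold change was -0.07 (standard error 0.23, 95% interval -0.60 to 0.47, limma adjusted p = 0.946), and -0.03 without OVCAR5 replicate 2.

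Promoters are shown for the genes of the CDK1 side, whose transcripts share a G2/M peak, and for CDC25A as the S phase counterpart, because the same kinds of element recur in them. The searched elements were the CHR (TTTGAA), bound by the LIN54 subunit of the MuvB complex, the CCAAT box, bound by NF-Y, and an E2F-type element (TTTNNCGC with each N being G or C), on both strands. Each line gives bases before the RefSeq start site on GRCh38.p14, 5′ to 3′ on the strand of the gene. Capitals mark matches, and ATTGG is a CCAAT box read from the opposite strand.
CDK1, chr10:60778161-60778330, plus strand: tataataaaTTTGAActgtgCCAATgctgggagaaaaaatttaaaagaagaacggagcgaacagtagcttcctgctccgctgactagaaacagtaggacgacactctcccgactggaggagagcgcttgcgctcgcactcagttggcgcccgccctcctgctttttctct
CCNB1, chr5:69167050-69167149, plus strand: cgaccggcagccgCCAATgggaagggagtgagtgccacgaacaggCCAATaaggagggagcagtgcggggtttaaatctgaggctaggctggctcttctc
CCNB2, chr15:59105016-59105145, plus strand: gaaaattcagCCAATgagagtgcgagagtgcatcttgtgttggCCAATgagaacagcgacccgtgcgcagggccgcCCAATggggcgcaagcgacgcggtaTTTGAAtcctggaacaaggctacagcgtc
CDC25C, chr5:138331878-138332097, minus strand: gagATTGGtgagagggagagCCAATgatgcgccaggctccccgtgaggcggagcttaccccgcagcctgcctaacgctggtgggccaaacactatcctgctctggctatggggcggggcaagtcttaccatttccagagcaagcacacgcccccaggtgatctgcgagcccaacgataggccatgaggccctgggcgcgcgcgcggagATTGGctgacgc
CDC25A, chr3:48188418-48188537, minus strand: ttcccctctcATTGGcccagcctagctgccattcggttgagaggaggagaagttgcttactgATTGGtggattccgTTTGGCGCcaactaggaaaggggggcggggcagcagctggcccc

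Evenly spaced CCAAT boxes are seen in CCNB2 (from -120, -87, and -54, counting back from the start site, with a further one at -244 outside the bases shown). CCNB1 has CCAAT boxes from -87 and -55 and no match to the CHR letters TTTGAA in its window. Other letters were not searched for as a CHR, so this does not show that CCNB1 lacks one. CCNB2 has the CHR at -29, and CDC25C has it from 44 bases after the start site used, which is -30 from another of its 4 start sites in the table. CDK1 has a CHR at -161 and an E2F-type element from base 20 after this start site. Its other start site has CHR letters at -69, -13, and 10 and CCAAT boxes at -78 and -46. CDC25A has an E2F-type element from -44. CDC25B had a CCAAT box in 2 of its 4 windows. CCNE1 had no match to these letters in its window, which says nothing of the factors that bind it. Over all 35097 promoter windows of the same length in the table, 15.2% held the CHR letters, 34.6% a CCAAT box, and 3.32% the E2F-type letters, so CHR and CCAAT letters are common. The table held windows for 7 of the 10 genes and no entry for CDK2, WEE1, or PKMYT1.

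The other CDC25 phosphatases act on CDK1, as CDC25A also does. CDC25B, which starts CDK1 activation at the centrosome, had values of 257, 136, and 272 in OVCAR5, against 154, 228, and 175 in OVCAR5R. OVCAR5 replicate 2 was the lowest of all 6 libraries, and the other OVCAR5 libraries were the highest. Its log2 fold change was -0.21 (standard error 0.31, 95% interval -0.91 to 0.49, limma adjusted p = 0.846). Without OVCAR5 replicate 2 it was -0.53 (limma adjusted p = 0.461). Every OVCAR5R library then lay below the remaining OVCAR5 libraries, but the share of all genes that separate with this library left out was not computed. It was -0.03 without OVCAR5 replicate 3, -0.07 without OVCAR5 replicate 1, -0.09 without OVCAR5R replicate 1, and -0.37 without OVCAR5R replicate 2. CDC25B was thus the switch gene whose log2 fold change depended most on the library that stood apart.

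CDC25C, which drives the switch-like rise of CDK1 at mitosis and which CHK1 phosphorylates so that 14-3-3 proteins hold it, had values of 39.0, 44.0, and 43.6 in OVCAR5. In OVCAR5R replicates 1, 2, and 3 it was at 43.4, 37.9, and 32.6. Replicates 2 and 3 of OVCAR5R lay below all OVCAR5 libraries and replicate 1 lay among them. This gave a log2 fold change of -0.16 (standard error 0.20, 95% interval -0.62 to 0.30, limma adjusted p = 0.824), and -0.13 without OVCAR5 replicate 2. Without OVCAR5R replicate 3 it was -0.05, and without OVCAR5R replicate 1 it was -0.26. FAM53C overlaps CDC25C on the opposite strand, and whether reads were counted by strand is not given in the sources used here. FAM53C had 87.9, 65.3, and 75.1 in OVCAR5 and 103.6, 86.0, and 87.4 in OVCAR5R, with a log2 fold change of 0.28 (limma adjusted p = 0.655), opposite in sign to that of CDC25C.

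Of the inhibitory kinases, WEE1 was higher by its mean, as CDK1 was, and PKMYT1 had nearly equal means. WEE1, the nuclear kinase, had values of 38.8, 26.6, and 30.7 in OVCAR5, against 38.6, 41.6, and 36.9 in OVCAR5R. OVCAR5 replicate 1 was as high as OVCAR5R, and the other OVCAR5 libraries were below it. With limma the log2 fold change was 0.29 (standard error 0.21, 95% interval -0.20 to 0.79, limma adjusted p = 0.659), 0.17 without OVCAR5 replicate 2 and 0.44 without OVCAR5 replicate 1.

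PKMYT1, the membrane-bound kinase, varied most among the OVCAR5 cultures. It had 41.9, 91.6, and 102 in OVCAR5, against 59.8, 72.4, and 93.8 in OVCAR5R. The OVCAR5R libraries all lay inside the range of OVCAR5. The fitted log2 fold change was 0.02 (standard error 0.36, 95% interval -0.80 to 0.83, limma adjusted p = 0.995), 0.18 without OVCAR5 replicate 2 and -0.38 without OVCAR5 replicate 1. PAQR4 and KREMEN2 overlap PKMYT1 on the opposite strand, and whether reads were counted by strand is not known here either. Values are given for PAQR4 only. PAQR4 took the values 46.9, 87.4, and 85.0 in OVCAR5 and 45.8, 67.2, and 87.2 in OVCAR5R, lowest in the same library of each line as PKMYT1.

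**Figure D2:**
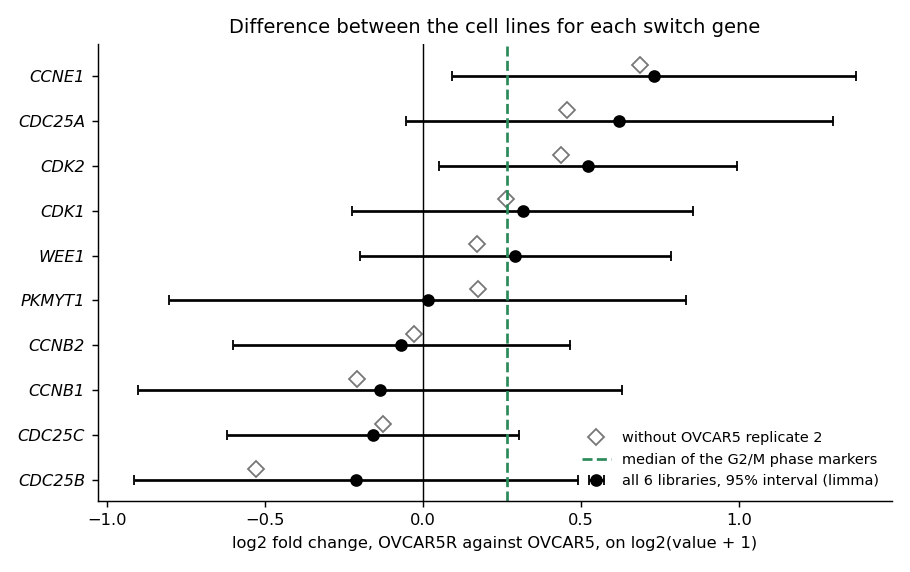
log2 fold change in OVCAR5R against OVCAR5 for each gene on the log2(value + 1) scale, with 95% intervals from limma over 6 libraries (black), the value without OVCAR5 replicate 2 (open diamonds), and the median of 51 G2/M phase markers that are no switch genes (dashed line at 0.27). CCNE1, CDC25A, and CDK2 lie at 0.52 or above, CCNB1, CCNB2, CDC25B, and CDC25C lie below 0, and the intervals of CDK2 and CCNE1 alone leave out 0.

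Markers of cell cycle phase also differed between the libraries, and in bulk RNA a change in the share of cells in a phase cannot be told apart from a change in RNA per cell. Of 51 G2/M phase markers that are no switch genes, 43 were higher in OVCAR5R by the mean, with a median log2 fold change of 0.27, and of 43 S phase markers 35 were higher, with a median of 0.29, where the median over all genes tested was -0.01. With limma, 0 of the markers passed an adjusted p of 0.05, and at an unadjusted p of 0.05 the G2/M phase markers had 2 of 51 higher and 1 lower and the S phase markers 5 of 43 higher, against 4.14% higher and 6.25% lower over all genes. The libraries did not overlap for 5 of 51 and 7 of 43, all higher, against 8.4% of all genes. Relative to the OVCAR5 mean of each gene, the median of the G2/M phase markers was 0.00, -0.37, and 0.36 in OVCAR5, against 0.45, 0.18, and 0.24 in OVCAR5R. OVCAR5 replicate 3, which was high for CDK1, CCNB1, CCNE1, and CDC25A, was thus also high for these markers, and OVCAR5 replicate 2 was low. Without OVCAR5 replicate 2 the median log2 fold change was 0.077 over all 54 listed G2/M phase markers, switch genes included, in place of 0.26, and 0.16 over the S phase markers. Without OVCAR5 replicate 3 both medians were 0.43.

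Each switch gene was also set against these G2/M phase markers in its own library, in 2 ways that gave different pictures. Relative to the median log2 level of the markers, which is the level of the middle gene, CDK2 was higher in OVCAR5R by 0.40, CCNE1 by 0.61, and CDC25A by 0.50, and their libraries did not overlap (exact two-sided permutation p = 0.1 for each, the smallest possible), where 5.16% of all genes were higher and 6.98% lower without overlap. Relative to the median shift of the markers from their own OVCAR5 means, chosen after seeing the data, the differences were 0.23, 0.44, and 0.33 and the libraries of all 3 genes overlapped. CDK2 was then at -0.12, 0.20, and -0.07 in OVCAR5, against 0.15, 0.39, and 0.17 in OVCAR5R. The separation of these 3 genes from the G2/M phase markers thus depended on how the markers were summarised.

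By the shift of the markers, CDK1 and WEE1 had differences of 0.03 and 0.00, and CCNB1, CCNB2, CDC25B, and PKMYT1 of -0.43, -0.36, -0.50, and -0.28, with overlap. CDC25C was at -0.11, 0.43, and -0.31 in OVCAR5, against -0.41, -0.33, and -0.60 in OVCAR5R, a difference of -0.45 without overlap (exact two-sided permutation p = 0.1). By this measure 13% of all genes were lower without overlap and 1.91% higher, and OVCAR5R replicate 2 and OVCAR5 replicate 3 lay side by side.

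Ratios between switch genes within a library leave out any shift of the whole library. The log2 ratio of CCNB1 to CDK1 was 0.98, 1.11, and 1.36 in OVCAR5, against 0.94, 0.96, and 0.21 in OVCAR5R. All OVCAR5R libraries were lower, though replicates 1 and 2 of OVCAR5R only just so, and the means were 1.15 ± 0.19 and 0.70 ± 0.43 (SD, n = 3 each). The log2 ratio of CCNB2 to CDK1 was 0.21, 0.54, and 0.31 in OVCAR5 and -0.05, 0.12, and -0.16 in OVCAR5R, with means of 0.35 ± 0.17 and -0.03 ± 0.14 (SD, n = 3 each). Again the groups did not overlap. Of all genes tested, 13.9% had a ratio to CDK1 that was lower in OVCAR5R without overlap and 1% a higher one, so such a ratio is not rare, and both ratios share CDK1. The log2 ratio of CDC25C to CDK1 averaged -1.16 ± 0.17 in OVCAR5, against -1.64 ± 0.27 in OVCAR5R (SD over 3 libraries), with an overlap between OVCAR5 replicate 3 at -1.34 and OVCAR5R replicate 2 at -1.33.

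The other ratios overlapped between the cell lines. The inhibitory kinases relative to CDK1 differed by -0.02 for WEE1 and -0.30 for PKMYT1, against SDs of 0.35 to 0.59 within a cell line. CCNE1 relative to CDK2 differed by 0.21, with overlap. Of all genes tested, 38% had a ratio to CDK2 that was lower in OVCAR5R without overlap and 0.586% a higher one. Of the phosphatases relative to the kinases that oppose them, CDC25A was higher in OVCAR5R by 0.33 against WEE1 and by 0.61 against PKMYT1, CDC25B had differences of -0.50 and -0.23, and CDC25C of -0.45 and -0.17. The balance of phosphatase to kinase transcripts thus had opposite signs for CDC25A and for CDC25B and CDC25C, with overlapping libraries in each case.

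**Figure D3:**
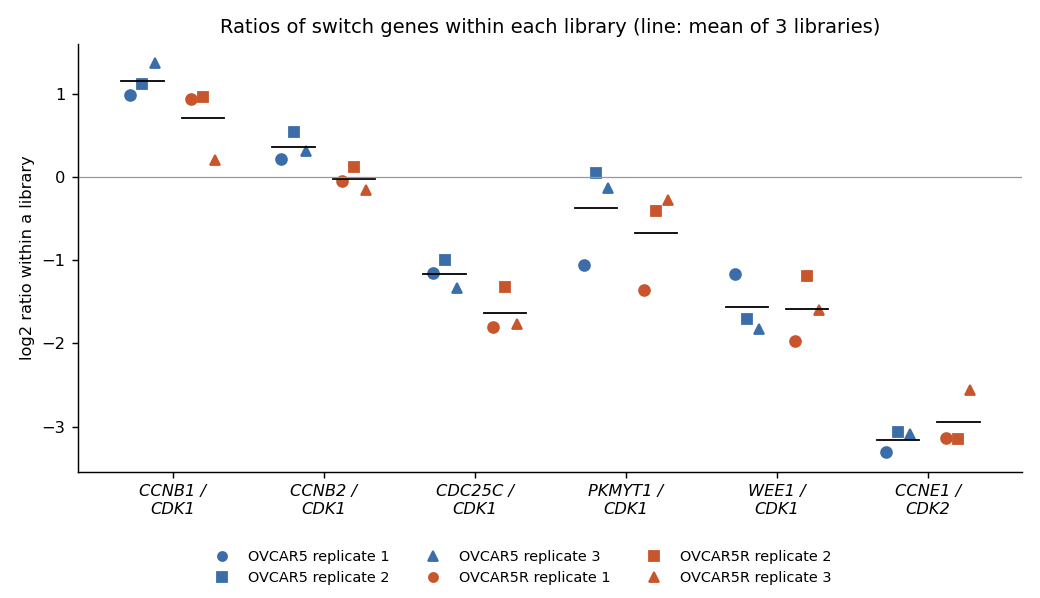
log2 ratio of one switch gene to another within each library, on log2(value + 1), for OVCAR5 (blue) and OVCAR5R (orange), with the mean of 3 libraries as a line. CCNB1 and CCNB2 relative to CDK1 are lower in every OVCAR5R library than in every OVCAR5 library, and OVCAR5R replicate 3 is the lowest for CCNB1 at 0.21.

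Each switch gene was also set beside the genes around it on its chromosome. For each gene, the tested genes within 5 Mb on either side on GRCh38 were summarised by the median, in each library, of their log2 values minus their own OVCAR5 means. CCNB1, on chromosome 5 from 69167010 to 69178245, has 43 such neighbours. Their median was 0.35, -0.27, and -0.42 in OVCAR5R, and CCNB1 itself was at 0.47, -0.18, and -0.70 in the same libraries. The order of the 3 OVCAR5R libraries was the same for the gene and for its neighbourhood. In OVCAR5 it was not, with -0.29, -0.14, and 0.43 for CCNB1 beside 0.07, -0.22, and 0.17 for its neighbours. Less the neighbours' median, the difference of CCNB1 between the cell lines was -0.02.

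CDC25C lies on the same chromosome from 138285265 to 138338355. Its 80 neighbours had medians of 0.03, -0.19, and -0.35 in OVCAR5R, beside 0.04, -0.15, and -0.36 for CDC25C. In OVCAR5 the neighbours were at 0.04, -0.15, and 0.07 and CDC25C at -0.11, 0.06, and 0.05, in another order. Less the neighbours' median, the difference of CDC25C was -0.00 in place of -0.16. PKMYT1 on chromosome 16 has 135 neighbours, which were at -0.35, 0.33, and 0.09 in OVCAR5, against -0.47, -0.16, and 0.14 in OVCAR5R. PKMYT1 was at -0.79, 0.32, and 0.47 and at -0.29, -0.02, and 0.35, so replicate 1 of each cell line was the lowest for both. CCNB2 on chromosome 15 had a difference of 0.07 less the median of its 36 neighbours, whose median log2 fold change was -0.12. What part of these genes' values a shift of the region makes up was not tested.

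Every switch gene but CDC25B had a higher log2 fold change than the median of its neighbours. CDK2, CDC25A, and CCNE1 were also the switch genes with the highest log2 fold changes. CDK2 on chromosome 12 has 120 neighbours with a median log2 fold change of -0.06, and CDC25A on chromosome 3 has 133 with -0.02, against 0.52 and 0.62 for the genes themselves. CCNE1 on chromosome 19 has 28 neighbours with a median of 0.22, of which 22 were higher, and less their median in each library the difference of CCNE1 was 0.48. CDK1 on chromosome 10, with 15 neighbours at a median of 0.10, and WEE1 on chromosome 11, with 57 at 0.10, had differences of 0.22 and 0.15 less their neighbours' medians. CDC25B on chromosome 20 had a difference of -0.24 by the same measure, with 54 neighbours at a median of 0.01.

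**Figure D4:**
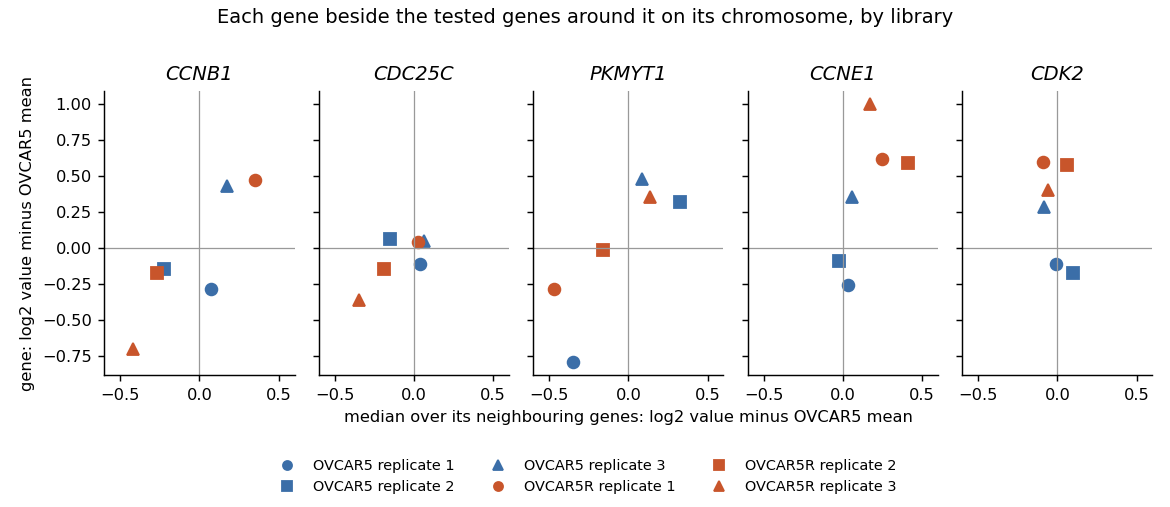
log2 value of each gene (vertical axis) against the median over its tested neighbours within 5 Mb (horizontal axis), both relative to the OVCAR5 mean of each gene, by library, for 5 of the 10 genes. The OVCAR5R libraries of CCNB1 and CDC25C fall from upper right to lower left, from 0.47 to -0.70 for CCNB1, while those of CDK2 lie between 0.40 and 0.60 with neighbours between -0.09 and 0.06.

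Levels between genes were compared per kb of merged exons in GENCODE release 29, since the deposited values are not divided by length. In OVCAR5 the order by mean normalized value per kb was CCNB1 (101), CDC25B (55.9), CDK1 (47.2), CCNB2 (45.8), PKMYT1 (28.4), CDK2 (25.4), CDC25C (16.4), WEE1 (7.51), CDC25A (6.68), and CCNE1 (2.93). The libraries of CDC25B, CDK1, and CCNB2 overlapped from each to the next, as did those of PKMYT1 with CDK2 and of WEE1 with CDC25A. In OVCAR5R the order was CCNB1 (94.8), CDK1 (59.7), CDC25B (46.7), CCNB2 (44.0), CDK2 (36.3), PKMYT1 (27.2), CDC25C (14.8), CDC25A (9.99), WEE1 (9.15), and CCNE1 (5.14). The changes of order were between neighbours whose libraries overlapped in at least 1 cell line. Cyclin B1 thus had the highest mean and cyclin E1 the lowest in both cell lines. In OVCAR5R, however, the libraries of CCNB1 overlapped those of CDK1, and each gene from there down to PKMYT1 overlapped the next.

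The wider pathway was read from 6 lists of genes that work with the switch, 49 of which were tested. None of the 49 passed the adjusted p of 0.05 with limma, and 2 passed an unadjusted p of 0.05, MNAT1 and LIN52, both higher, against 4.14% of all genes. By the mean, 25 were higher and 24 lower, and the median log2 fold change was 0.01. The libraries did not overlap for 4 higher genes and 1 lower gene of the 49, against 8.4% and 8.18% of all genes, so these counts are near or under the share over all genes.

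Among other cyclins, CDKs, and CKS subunits, 8 of the 11 tested were higher by the mean. The highest was CCNE2, the other cyclin E, at 0.62 on the log2 scale (standard error 0.44, limma adjusted p = 0.652), and its values overlapped widely. The lowest was CCNA2, which encodes cyclin A2, the cyclin that CDK2 and CDK1 share through S and G2 phase. CCNA2 had 70.8, 59.4, and 101 in OVCAR5 and 53.1, 44.0, and 57.3 in OVCAR5R, so every OVCAR5R library was lower (log2 fold change -0.55, standard error 0.25, limma adjusted p = 0.491). MNAT1, the assembly factor of the CDK-activating kinase that completes CDK1 and CDK2 activation, was at 37.8, 40.9, and 39.4 in OVCAR5 and at 63.8, 54.8, and 57.3 in OVCAR5R (log2 fold change 0.56, standard error 0.18, limma adjusted p = 0.359). It was named after its values were seen.

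The inhibitor proteins that bind CDKs were all on the lower side by the mean, 5 of 5 tested, where 5975 of all 11766 genes tested were. Of the 7 listed, CDKN2A and CDKN2B fell below the filter on low values. Every one of the 5 tested overlapped between the cell lines, and 0 of 5 had an unadjusted p under 0.05 with limma. Their log2 fold changes ran from -0.65 for CDKN1C (p57) to -0.10 for CDKN1A (p21), with a median of -0.47, which was -0.27 without OVCAR5 replicate 1, -0.30 without OVCAR5 replicate 2, -0.71 without OVCAR5 replicate 3, and -0.23 with no filter on low values. CDKN1C was at 6.21, 5.65, and 3.14 in OVCAR5 and at 2.09, 4.81, and 1.84 in OVCAR5R, and OVCAR5 replicate 3 was low for the list as a whole, with a median of -0.49 relative to the OVCAR5 mean. Of the mitotic entry kinases and the inhibitors of the phosphatase PP2A-B55, 3 of 6 were higher, from BORA, the activator of AURKA, at -0.21 to AURKA, the kinase that acts on PLK1, at 0.42.

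The 14-3-3 proteins, which hold phosphorylated CDC25, ran from SFN (14-3-3 sigma) at -0.47 to YWHAZ (zeta) at 0.54, with 4 of 7 higher. Ubiquitin ligase parts that act on cyclins, CDC25A, and WEE1 centred on 0.00, with 5 of 11 higher, from UBE2S at -0.17 to CDC20, the mitotic activator of the anaphase-promoting complex, at 0.44. Of the transcription factors of G2/M promoters, 5 of 9 were higher. LIN52, a MuvB subunit, was at 25.7, 24.2, and 24.0 in OVCAR5 and at 30.0, 48.0, and 46.8 in OVCAR5R (log2 fold change 0.70, standard error 0.24, limma adjusted p = 0.372). LIN54, which binds the CHR, had the lowest value of that list at -0.52, with 30.4, 21.6, and 29.5 in OVCAR5 and 15.0, 13.2, and 31.4 in OVCAR5R.

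**Figure D5:**
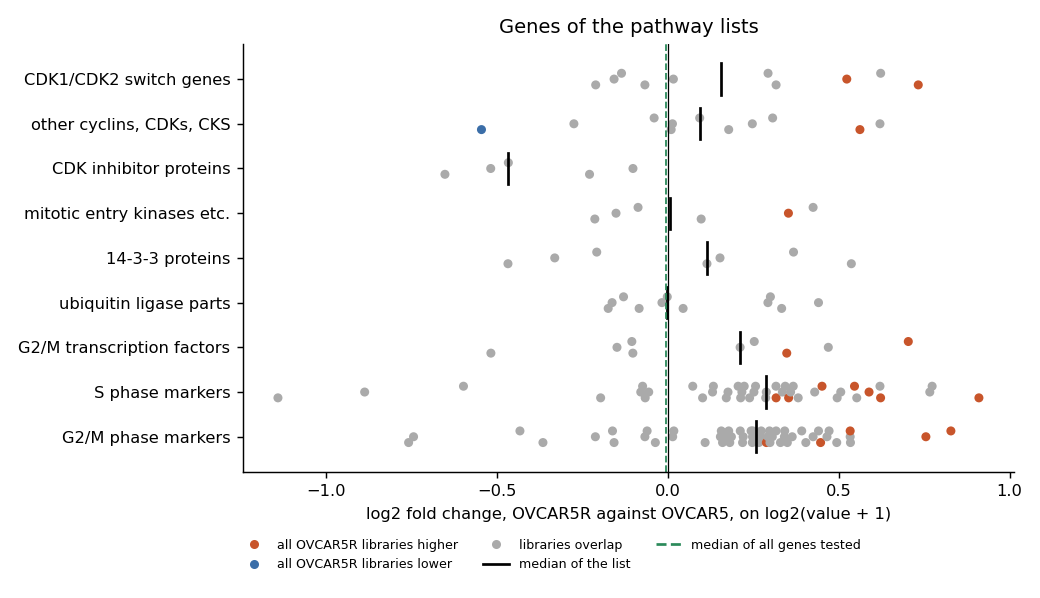
log2 fold change in OVCAR5R against OVCAR5 on log2(value + 1) for each tested gene of the switch, of the 6 pathway lists, and of the S and G2/M phase markers, coloured where the 6 libraries do not overlap, with list medians as black lines and the median of all genes tested dashed. The list medians run from -0.47 for the CDK inhibitor proteins to 0.29 for the S phase markers.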

How the data were processed

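A table of the whole series held RNA-seq of 3 OVCAR5 and 3 OVCAR5R cultures. The authors deposited a normalized signal per gene and library on a linear scale, after quartile normalization per the study's methods. The submitters' processing notes name hg38, and the aligner, counter, annotation, and gene filter are not given in the sources used here. The file held 12309 rows, and 1 identical copy was dropped. Low values moved in steps of 1 estimated read, and 63.0% to 67.1% of values were whole multiples (within 0.01 reads), so estimated reads, not whole counts, underlie the table, and no count test served as the main test. Depth lay between 3.58e+07 and 5.51e+07 estimated reads. Precision is set mainly by how far the 3 libraries of a line differ.

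On the log2(value + 1) scale, limma 3.58.1 (R 4.3.3) tested the genes that reached 1 in 3 or more libraries (lmFit, eBayes with trend, no covariates, two-sided, Benjamini-Hochberg over all 11766 genes). Single genes had an exact permutation test over 20 splits and an exact Mann-Whitney test. The fit was tested on simulated data. Alternatives were quantile normalization, median scaling, no trend, library weights, no filter, a filter at 5, a pseudocount of 0.1, a replicate block, each library left out, and the G2/M phase markers as reference. Limma's voom on estimated reads, the neighbouring genes as reference, the median shift of neighbours or markers in place of their median level, and the shares of all genes by ratio were chosen after seeing the data.

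The 10 genes and all lists were chosen with earlier results of these data known. Named genes are those 10, any gene of a pathway list with an adjusted p under 0.05 or else its highest and lowest log2 fold change, and the 3 genes most like CDK1, CDK2, and CCNB1 over the libraries. Genes overlapping a switch gene, FAM53C, PAQR4, and KREMEN2, and MNAT1 and the cell type markers were named beside this rule. GENCODE release 29 (GRCh38) matched 12233 of 12305 symbols for positions and gave exon lengths for the 10 switch genes. RefSeq (GRCh38.p14) gave promoters. Plots used matplotlib 3.10.9 under Python 3.11.15.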

Additional observations from a re-analysis of the deposited data

How the results depend on the processing

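Precision is limited by the spread between 3 libraries per cell line and, for CCNE1, by low values. Of all genes tested, 14 had an adjusted p under 0.05 (limma). This count was 30 with library weights, 5 with the replicate block, and 0 with limma's voom, which had 1182 genes at an unadjusted p under 0.05. With a library left out it lay between 0 and 29, with 0 without OVCAR5R replicate 3 (864 at an unadjusted p under 0.05) and 29 without OVCAR5 replicate 2. In every one of these settings 0 of the 10 switch genes and 0 of the 49 pathway genes had an adjusted p under 0.05, while 0 to 3 of the switch genes had an unadjusted p under 0.05. The deviations of same-numbered libraries had r of -0.00, 0.18, and -0.12 across genes. Those of differently numbered libraries had r of -0.19 to 0.25, so the numbers were not taken to pair the cultures. Each number stands for 1 library of each line, so the replicate block cannot alter a log2 fold change. With the block the unadjusted limma p was 0.057 for CDK2 and 0.048 for CDC25A, against 0.034 and 0.066 in the main fit.

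CDK1, CDK2, CCNE1, CDC25A, CDC25B, and WEE1 kept the sign of their log2 fold change under all settings tried. Dropping the trend, changing the filter, or adding the replicate block cannot change that sign. Relative to the median shift of the G2/M phase markers, CDK1 was at 0.025 and WEE1 at 0.0016, so little of a difference was left there. With a library left out, the log2 fold change lay between -0.44 and 0.15 for CCNB1, between -0.24 and 0.034 for CCNB2, and between -0.38 and 0.25 for PKMYT1. PKMYT1 was at -0.10 relative to the median level of the G2/M phase markers and at -0.28 relative to their median shift. CCNB2 was at 0.16 and CDC25C at 0.11 relative to the median level of their neighbouring genes, while relative to the neighbours' median shift CCNB2 was at 0.067 and CDC25C at -0.00. These cover the changes of sign, and their cause was not tested. From 5 to 8 of the switch genes were higher by their mean with a library left out. The median log2 fold change of the transcription factors of G2/M promoters was 0.083 with library weights and between 0.030 and 0.34 with a library left out. In the same way it lay between 0.11 and 0.29 for the other cyclins, CDKs, and CKS subunits and between -0.067 and 0.18 for the mitotic entry list.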

Other observations

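The genes whose log2 values over the 6 libraries were most like those of 3 switch genes were listed as a description, with no p. For CDK2, Pearson's r was 0.997 with KIF1BP, 0.996 with FAM72A, and 0.995 with DAP3, and 116 genes had an r above 0.95. FAM72A belongs to a family of near-identical copies, so its reads may be split among them. For CDK1, r was 0.983 with CCDC85C and YKT6 and 0.980 with NOTCH2NL, and 26 genes were above 0.95. For CCNB1, r was 0.981 with MOCS2, 0.979 with ZC3H4, and 0.978 with AC016888.1, and 16 genes were above 0.95. MOCS2, an enzyme subunit of molybdopterin synthesis, lies on chromosome 5 like CCNB1, starting at 53095679, outside the 5 Mb taken as the neighbourhood of CCNB1. It had 31.0, 28.9, and 42.9 in OVCAR5 and 45.0, 29.2, and 22.3 in OVCAR5R.

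The kinase pair of the switch had a narrower range of ratios in the parental cultures than in the resistant ones. The log2 ratio of CDK1 to CDK2 was 0.63, 0.70, and 0.57 in OVCAR5, against 0.73, 0.08, and 0.48 in OVCAR5R, by replicate, with SDs of 0.07 and 0.33 (n = 3 each). That ratio was lowest in OVCAR5R replicate 2. The log2 ratio of CCNB1 to CCNB2 was lowest in another library, OVCAR5R replicate 3, at 0.37, against 0.58 to 1.05 in the other libraries. These pairs were chosen after their values were seen, and the difference in spread was not tested.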
